A study of Homo sapiens with 12 samples.

Results

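The cathepsins are a family of proteases that act mainly in the lysosome, and 10 of their genes were followed here in HaCaT keratinocytes. CTSA, CTSB, CTSC, CTSD, CTSH, CTSK, CTSL, CTSS, CTSV and CTSZ were taken by symbol from the 22545 genes of the deposited count table. They were chosen by symbol with their counts in all 4 groups already in view and with no recorded threshold, so their levels, fold changes and counts are given as a description, without p-values. CTSE, CTSO and CTSW, the 3 other cathepsin genes of the table, are given at the end of the results on levels.

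HaCaT is an immortalised line of human skin keratinocytes, and the RNA of 12 libraries was sequenced. There were 4 groups of 3 libraries. Cells were left untreated, or received M5 alone, M5 with lefamulin, or M5 with retapamulin, so every treated group had M5. M5 is the label's name for the stimulus; its composition, doses and times are not stated in the labels used here. Both compounds are antibacterial pleuromutilins with a common tricyclic core and different side chains, and the series concerns psoriasis. All libraries come from 1 cell line, and nothing in the labels says that the replicates were separate cultures, so the spread given here may be technical.

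Cathepsins are made as inactive precursors, carried to the lysosome largely by mannose 6-phosphate receptors, and activated there by removal of a propeptide. Most are cysteine proteases, which are held in check by cystatins and by some serpins, whereas CTSA is a serine carboxypeptidase and CTSD an aspartic endopeptidase. In the epidermis they take part in protein turnover, in the late steps of cornification and in antigen processing, and several are also secreted by inflamed or migrating cells.

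Libraries held between 35110519 and 37520999 counts assigned to genes, and 14207 genes had enough counts to be tested. Keratinocyte markers were present, with counts for 10 of 10 genes in every group and a summed level of 3941 to 3984 CPM (counts in each library put on 1 common total) in untreated cells. The sum was 3448 to 3568 CPM with M5, 4033 to 4141 CPM with lefamulin and 4546 to 4599 CPM with retapamulin. Single markers moved apart within that sum: KRT5, a keratin of basal keratinocytes, went from 1632 CPM in untreated cells to 637, 454 and 437 CPM in the 3 treated groups, and SFN, stratifin, from 466 to 529, 1267 and 1472 CPM. KRT14, the partner of KRT5, was at 8.52 CPM in untreated cells and 0.730 CPM with retapamulin. Their part in the cathepsin values was not tested. CPM here is scaled by trimmed mean of M-values (TMM), which sets the centre of most genes level between libraries. Scaling on library totals alone moved the median of all genes from -0.02 to -0.14 on the log2 scale for M5 against untreated cells, and from -0.06 to -0.31 for retapamulin with M5 against untreated cells. Changes below are relative to the TMM centre, and those that turn or lose their call on library totals are named.

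CTSB, a cysteine protease that cuts both within chains and from their C-terminal end, had the largest change in CPM. Its level was 318, 335 and 327 CPM in untreated cells and 2140.2, 2051 and 2069.8 CPM with M5. It was 543, 540.0 and 563 CPM when lefamulin was present and 460.4, 462 and 479 CPM when retapamulin was present. No group overlapped another: M5 alone was highest by a wide margin, and both compound groups lay between it and the untreated cells. On the log2 scale the change was 2.67 ± 0.03 (SE) for M5 over untreated cells, -1.93 ± 0.03 for lefamulin with M5 against M5, and -2.16 ± 0.03 for retapamulin with M5 against M5. With the compounds CTSB was still above untreated cells, by 0.75 with lefamulin and 0.51 with retapamulin.

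CTSC, the dipeptidyl peptidase that activates the granule proteases of neutrophils, mast cells and cytotoxic lymphocytes, had the same order of groups over a smaller range. Loss of CTSC in people causes Papillon-Lefèvre syndrome, with thickened skin of palms and soles. Its level was 130.2, 128 and 134 CPM in untreated cells, 326, 303 and 315 CPM with M5, 165, 174 and 173 CPM with lefamulin, and 146, 144 and 146 CPM with retapamulin. The 4 groups did not overlap. Fitted log2 fold changes were 1.27 ± 0.04 (SE) for M5 over untreated cells, -0.88 ± 0.04 for lefamulin against M5 and -1.11 ± 0.04 for retapamulin against M5. Compared with untreated cells CTSC was higher by 0.15 with retapamulin, and this turned to -0.10 on library totals.

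CTSS, a cysteine endopeptidase that stays active at neutral pH and trims the invariant chain of MHC class II in antigen-presenting cells, rose with M5 and rose further with both compounds. It held 3.81, 3.89 and 3.82 CPM in untreated cells and 28.6, 29.2 and 30.0 CPM with M5. Lefamulin libraries held 53.0, 54.5 and 54.8 CPM, and retapamulin libraries 54.8, 51.4 and 54.9 CPM. Untreated and M5 libraries overlapped with no other group, while both compound groups covered the same range. In log2 fold change this was 2.93 ± 0.06 (SE) for M5 over untreated cells, 0.89 ± 0.05 for lefamulin against M5 and 0.88 ± 0.05 for retapamulin against M5. CTSS and CTSB thus both rose with M5 and moved in opposite directions when a pleuromutilin was added.

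CTSK, the collagen-cutting protease of osteoclasts, lies next to CTSS on chromosome 1 among protein-coding genes. It was low, at 2.50, 3.09 and 1.97 CPM in untreated cells and 3.34, 3.16 and 2.39 CPM with M5, and these ranges overlapped. Lefamulin libraries held 5.89, 6.04 and 5.50 CPM and retapamulin libraries 4.94, 5.90 and 4.08 CPM, all above every M5 library. The log2 difference was 0.23 ± 0.19 (SE) for M5 against untreated cells, which was not called, 0.97 ± 0.18 for lefamulin against M5 and 0.75 ± 0.18 for retapamulin against M5.

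**Figure D1:**
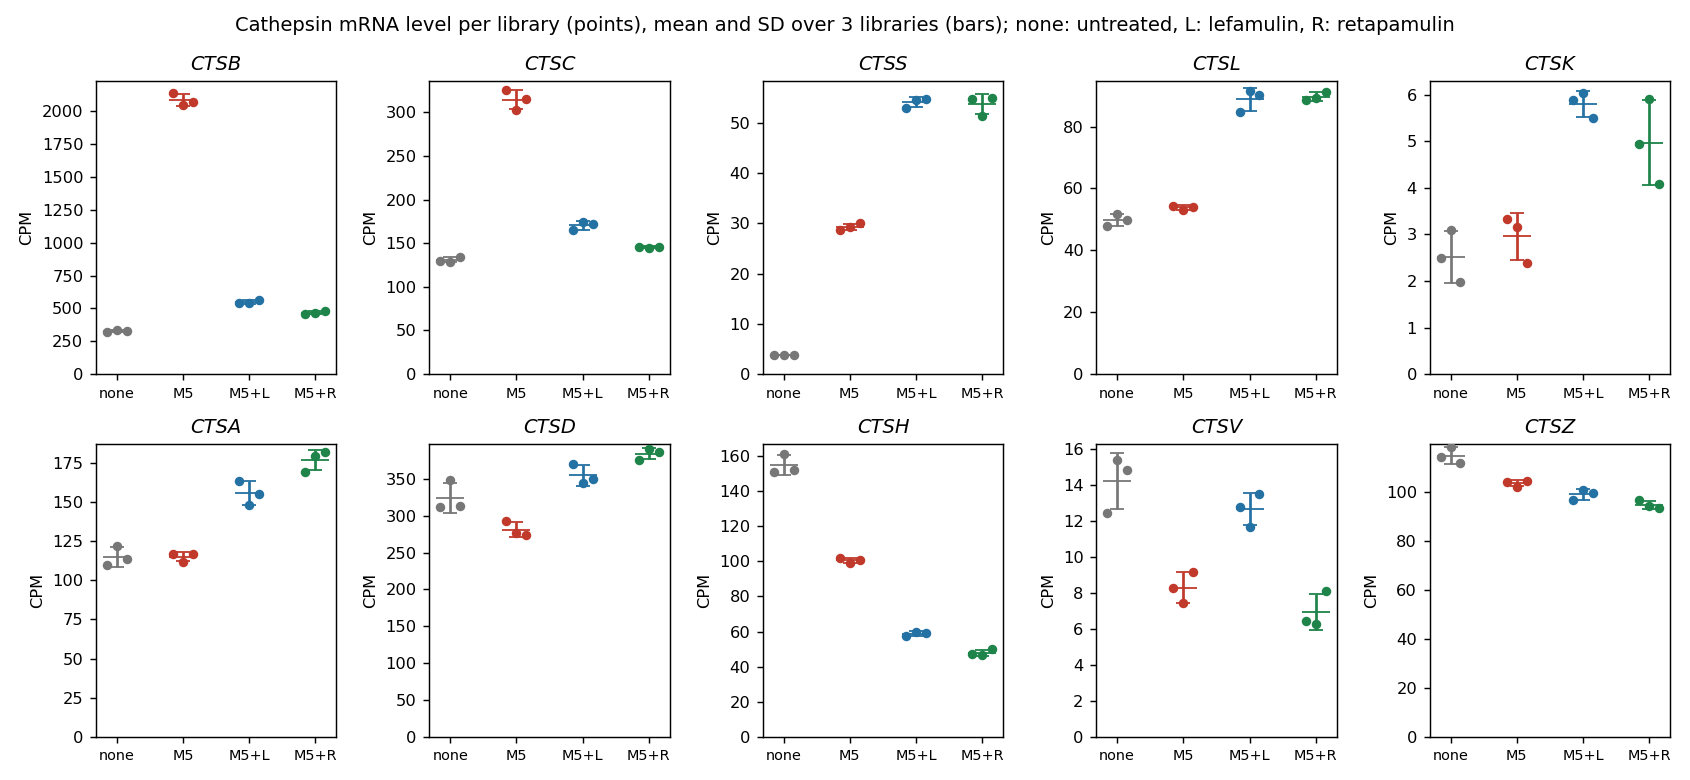
Level of each cathepsin gene in CPM (vertical axis, linear, 1 panel per gene with its own range) in untreated (none), M5, M5 with lefamulin and M5 with retapamulin libraries; points are libraries, and bars give the mean and SD over 3. CTSB and CTSC peak with M5 alone, CTSS and CTSK are highest with the compounds, and CTSH falls from group to group.

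CTSA removes C-terminal residues and, apart from that activity, protects beta-galactosidase and neuraminidase in a complex. It held 109.5, 122.2 and 113.7 CPM in untreated cells and 116.6, 111.6 and 116.7 CPM with M5, which overlapped. It held 163.8, 148.3 and 155.3 CPM with lefamulin and 169.3, 179.3 and 182.0 CPM with retapamulin, both above all libraries without a compound. The log2 fold change was -0.00 ± 0.04 (SE) for M5 against untreated cells, and on library totals it was -0.12 and called. It was 0.44 ± 0.04 for lefamulin and 0.62 ± 0.04 for retapamulin against M5. CTSD, an aspartic endopeptidase that is among the main degradative enzymes of the lysosome, held 312, 348 and 313 CPM in untreated cells, 293, 276 and 274 CPM with M5, 370.5, 344 and 349 CPM with lefamulin, and 376, 390.4 and 386 CPM with retapamulin. M5 lay below all other groups and retapamulin above all, and lefamulin overlapped untreated cells. The log2 fold change of CTSD was -0.21 ± 0.04 (SE) for M5 against untreated cells, 0.34 ± 0.04 for lefamulin against M5 and 0.45 ± 0.04 for retapamulin against M5. Against untreated cells the values for CTSD were 0.13 with lefamulin and 0.24 with retapamulin, and these turned to -0.04 and -0.01 on library totals. Sequence shared with other genes may affect the CTSD count. On either strand, 54.2% of the stretches of 50 bases in its annotated transcripts also occur in transcripts of other genes. For CTSA 20.0% do. Of the 1550 shared stretches of CTSD, 1258 were shared with AC068580.4. Of the 503 of CTSA, 195 were shared with its neighbour on chromosome 20, NEURL2. How reads from such stretches were counted was not tested.

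These 2 genes are shown with their promoters because the E-box core CACGTG, the centre of the CLEAR element that the lysosome regulator TFEB binds, is found there. RefSeq promoters of 250 bases before the start were matched for 7 of 10 members (CTSA, CTSC, CTSD, CTSH, CTSL, CTSV and CTSZ), on GRCh38.p14, and the core was searched on its own (it reads the same on both strands). CTSA and CTSD held it, and 6.34% of 35116 promoters of that length did. A match is a description of letters, not of binding. CTSA lies on the forward strand, chr20:45891085-45891334, and CTSD on the reverse strand, chr11:1763928-1764177; capitals mark the core, 5′ to 3′.
CTSA: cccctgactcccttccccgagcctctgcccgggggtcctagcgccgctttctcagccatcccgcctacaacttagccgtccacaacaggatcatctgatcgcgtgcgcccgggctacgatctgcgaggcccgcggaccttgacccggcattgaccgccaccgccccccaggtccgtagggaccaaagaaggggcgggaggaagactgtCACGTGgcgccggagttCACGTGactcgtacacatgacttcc
CTSD: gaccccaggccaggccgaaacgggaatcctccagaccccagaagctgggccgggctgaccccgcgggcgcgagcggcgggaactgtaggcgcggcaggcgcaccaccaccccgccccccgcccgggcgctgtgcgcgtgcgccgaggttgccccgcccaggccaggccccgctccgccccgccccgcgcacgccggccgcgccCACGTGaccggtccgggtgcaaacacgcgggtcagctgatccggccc
CTSA holds the core from -42 to -37 and again from -25 to -20, counting back from the start, and CTSD from -47 to -42. Of the other motifs searched, on both strands, the GC box GGGCGG was in 7 of 7 and in 42.6% of all promoters, and the CCAAT box in 3 of 7 (CTSC, CTSL and CTSV) and in 32.0% of all. The NF-kB consensus matched in CTSZ alone, with 9.96% of all promoters, and the gamma-activated site, AP-1 and TATA box matched in 0 of 7, with 6.57%, 4.2% and 10.7% of all promoters.

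CTSL and CTSV are close relatives, CTSV being known mainly from thymus, testis, cornea and epidermis and CTSL from most tissues, and both lie on chromosome 9. CTSL held 47.9, 51.8 and 49.9 CPM in untreated cells, 54.4, 53.1 and 54.1 CPM with M5, 84.6, 91.6 and 90.2 CPM with lefamulin, and 88.6, 89.3 and 91.2 CPM with retapamulin. Untreated and M5 libraries lay close together, and both compound groups lay far above them over the same range. The log2 fold change of CTSL was 0.72 ± 0.04 (SE) with lefamulin and 0.74 ± 0.04 with retapamulin against M5. For M5 against untreated cells it was 0.11 ± 0.04, a call that was lost without untreated replicate 1 or 3 or M5 replicate 1 or 3 (0.08 to 0.11) and with only genes of at least 1 CPM in 3 libraries tested (0.09), and that turned to -0.01 on library totals. CTSV was lower, at 12.5, 15.4 and 14.8 CPM in untreated cells, 8.29, 7.42 and 9.17 CPM with M5, 12.8, 11.7 and 13.5 CPM with lefamulin, and 6.42, 6.28 and 8.10 CPM with retapamulin. Lefamulin libraries overlapped untreated cells, and retapamulin libraries overlapped M5. The log2 fold change of CTSV was -0.78 ± 0.11 (SE) for M5 against untreated cells, 0.61 ± 0.11 for lefamulin against M5 and -0.26 ± 0.12 for retapamulin against M5. The last was not called, and it was called at -0.39 on library totals. It was also called without untreated replicate 1 or 2, M5 replicate 2 or retapamulin replicate 3, at -0.39 to -0.26. Without M5 replicate 3 it was -0.18, not called.

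The promoters of this pair are printed because they share the longest run of letters among the 7, 23 bases, against 13 for the next pair (CTSD and CTSH). CTSL is on the forward strand at chr9:87725869-87726118 and CTSV on the reverse strand at chr9:97039143-97039392; capitals mark the shared run, which covers -96 to -74 in CTSL and -86 to -64 in CTSV and holds the CCAAT box.
CTSL: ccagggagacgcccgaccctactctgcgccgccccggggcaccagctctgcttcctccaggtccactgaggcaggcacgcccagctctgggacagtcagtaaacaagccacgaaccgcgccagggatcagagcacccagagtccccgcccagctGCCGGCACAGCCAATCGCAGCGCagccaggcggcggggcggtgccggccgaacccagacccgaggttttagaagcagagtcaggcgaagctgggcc
CTSV: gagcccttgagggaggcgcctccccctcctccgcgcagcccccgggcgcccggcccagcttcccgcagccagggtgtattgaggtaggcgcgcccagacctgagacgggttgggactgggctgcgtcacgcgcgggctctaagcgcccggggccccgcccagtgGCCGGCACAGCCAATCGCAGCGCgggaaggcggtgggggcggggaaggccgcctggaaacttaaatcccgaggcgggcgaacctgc
Their transcripts share 0 stretches of 50 bases, so reads of that length can be told apart between them.

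CTSH, an aminopeptidase that also cuts within chains, fell with M5 and was lower still with each compound. It held 151, 161 and 152 CPM in untreated cells, 102, 99.4 and 100.7 CPM with M5, 57.2, 59.6 and 59.4 CPM with lefamulin, and 47.0, 46.5 and 49.9 CPM with retapamulin. The 4 groups did not overlap, and the order was the same throughout. The fitted change on the log2 scale was -0.62 ± 0.04 (SE) for M5 against untreated cells, -0.78 ± 0.04 for lefamulin against M5 and -1.08 ± 0.04 for retapamulin against M5. CTSZ is a carboxypeptidase also named cathepsin X. It held 114, 118 and 112 CPM in untreated cells, 104, 102 and 105 CPM with M5, 96.6, 101 and 99.8 CPM with lefamulin, and 96.6, 94.3 and 93.6 CPM with retapamulin. M5 lay below untreated cells and above both compounds, whose ranges touched. The log2 fold change of CTSZ was -0.15 ± 0.04 (SE) for M5 against untreated cells, -0.07 ± 0.04 for lefamulin against M5 (not called, but called at -0.11 on library totals) and -0.13 ± 0.04 for retapamulin against M5.

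Counted together, 4 of 10 members were higher (CTSB, CTSC, CTSL and CTSS) and 4 lower (CTSD, CTSH, CTSV and CTSZ) with M5 than in untreated cells, where 28.3% of all genes tested were higher and 26.9% lower (55.2% in all). Libraries did not overlap for the same 8 genes, and for 29.8% of all genes in the higher direction and 29.4% in the lower. Called here means an adjusted p under 0.05 in the edgeR quasi-likelihood fit with Benjamini-Hochberg adjustment. Lefamulin with M5 against M5 gave 6 higher (CTSA, CTSD, CTSK, CTSL, CTSS and CTSV) and 3 lower (CTSB, CTSC and CTSH), with 33.6% and 34.3% of all genes (67.9% in all). Libraries did not overlap for 6 higher and 4 lower members, CTSZ being the addition, beside 35.2% and 36% of all genes. Retapamulin with M5 against M5 gave 5 higher (CTSA, CTSD, CTSK, CTSL and CTSS) and 4 lower (CTSB, CTSC, CTSH and CTSZ), with 34.1% and 38% of all genes (72.1% in all). Libraries did not overlap for those 5 and 4 members, beside 34.9% and 38.9% of all genes. Both compound comparisons use the same 3 M5 libraries, so their values are set side by side only. The median log2 fold change of the members was 0.05, 0.39 and 0.16 in the 3 comparisons, against -0.02, -0.00 and -0.05 over all genes. On library totals the share of called genes that were higher fell from 51.3% to 31.5% for M5 against untreated cells, from 49.9% to 38.6% for lefamulin and from 47.8% to 33.7% for retapamulin against untreated cells. Among the members, library totals removed CTSL from those higher with M5 than in untreated cells and added CTSA to those lower. They also added CTSZ for lefamulin and CTSV for retapamulin to the members lower against M5. Since the members were named with these values known, nothing is read from the counts.

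Against untreated cells, 7 members were higher and 2 lower (CTSH and CTSZ) with lefamulin and M5, where 36.9% of all genes were higher and 37.1% lower (74% in all); libraries did not overlap for 6 and 2, beside 38.1% and 38.1% of all genes. With retapamulin and M5, 7 were higher and 3 lower (CTSH, CTSV and CTSZ), where 37.6% of all genes were higher and 40.9% lower (78.5% in all); libraries did not overlap for the same 7 and 3, beside 38% and 41.3% of all genes. CTSS had the largest differences, at 3.81 with lefamulin and 3.80 with retapamulin on the log2 scale. CTSH had the lowest values, at -1.40 and -1.70. CTSV was lower by -1.04 with retapamulin and, with lefamulin, at -0.17 (95% interval -0.39 to 0.05), which was not called but was called at -0.33 on library totals and at -0.26 without untreated replicate 1. Without untreated replicate 2 it was -0.11, not called. On library totals CTSD was not called with either compound, and CTSC was called lower with retapamulin, at -0.10.

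**Figure D2:**
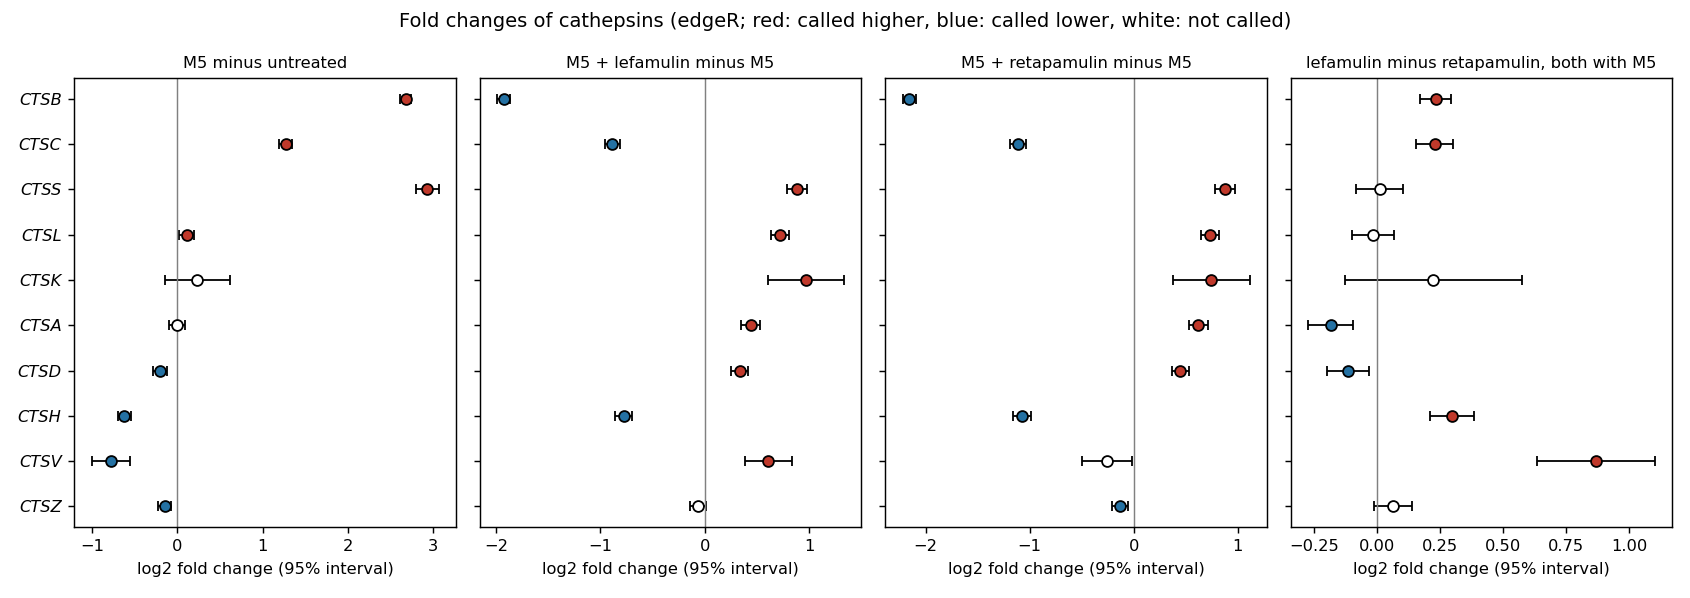
Log2 fold change of each cathepsin gene (horizontal axis, with 95% intervals) for M5 against untreated cells, for lefamulin or retapamulin with M5 against M5, and for lefamulin against retapamulin, each panel with its own range. CTSB and CTSC lie far right with M5 and left with both compounds, whereas CTSS lies right in all but the last comparison.

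The compounds were set against each other with M5 present in both groups, with doses and times unknown. Lefamulin libraries were higher than retapamulin libraries for 4 of 10 members (CTSB, CTSC, CTSH and CTSV) and lower for 2 (CTSA and CTSD), where 18.8% of all genes tested were higher and 21.2% lower (40% in all). Of the genes called in this comparison 47.0% were higher, and on library totals 72.8% were. Libraries did not overlap for the same 4 and 2, beside 25.2% and 26.8% of all genes. CTSV differed most, by 0.87 on the log2 scale (95% interval 0.63 to 1.10). CTSH differed by 0.30 (0.21 to 0.39), CTSB by 0.23 (0.17 to 0.29) and CTSC by 0.23 (0.16 to 0.30). CTSA was lower with lefamulin, at -0.18 (-0.27 to -0.09), and CTSD at -0.11 (-0.20 to -0.03). On library totals neither CTSA (-0.09) nor CTSD (-0.03) was called, and the CTSD call was also lost without lefamulin replicate 2 or 3 or retapamulin replicate 2 or 3, at -0.11 to -0.09. CTSL at -0.01 (-0.10 to 0.07), CTSS at 0.01 (-0.08 to 0.10), CTSZ at 0.06 (-0.01 to 0.14) and CTSK at 0.22 (-0.13 to 0.58) were not called, and on library totals CTSL was at 0.07 and CTSZ was called at 0.15. The interval of CTSK, the gene with the fewest counts, was the widest of these 4.

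Levels of different genes were compared per length, as FPKM (fragments scaled by gene length and library total). Untreated cells held most CTSD, at 173 ± 11.1 FPKM (SD, n = 3), followed by CTSZ at 84.0 ± 2.91, CTSB at 72.9 ± 1.64, CTSH at 52.9 ± 1.97, CTSA at 40.8 ± 2.21, CTSL at 31.1 ± 1.09 and CTSC at 18.9 ± 0.315. CTSV, CTSK and CTSS were below 4 FPKM, and no neighbours in this order overlapped. With M5 CTSB led at 428 ± 9.76 FPKM, above 99.5% of the genes in the table, and CTSD followed at 138 ± 5.44. In that group CTSV at 1.91 ± 0.182 and CTSK at 1.84 ± 0.327 overlapped. CTSD led again with lefamulin, at 169 ± 6.97 FPKM, and with retapamulin, at 172 ± 1.76, with CTSB next at 109 ± 2.10 and 87.3 ± 1.55. CTSL at 49.3 ± 1.97 and CTSA at 49.3 ± 2.52 overlapped with lefamulin.

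The summed FPKM of the 10 genes was 480.0 ± 20.5 (SD, n = 3) in untreated cells, 789.8 ± 17.7 with M5, 501 ± 5.06 with lefamulin and 465 ± 2.24 with retapamulin. CTSB made up 15.2% of that sum in untreated cells, 54.2% with M5, 21.8% with lefamulin and 18.8% with retapamulin. CTSD made up 36%, 17.5%, 33.7% and 37% in the same order. CTSH went from 11% to 4.01%, 3.57% and 2.94%, and CTSS from 0.223% to 0.952%, 2.68% and 2.70%. CTSH, CTSZ and CTSV were smaller shares, and CTSS, CTSL, CTSA, CTSB and CTSK larger shares, with either compound than in untreated cells. FPKM are on library totals; the summed CPM, on the TMM scale and not per length, was 1237 ± 44.5 in untreated cells, 3096 ± 72.4 with M5, 1549 ± 16.6 with lefamulin and 1472 ± 22.4 with retapamulin. In summed FPKM the retapamulin mean was below that of untreated cells, but libraries overlapped, at 463.6 to 467.45 against 465.7 to 503.5. In summed CPM the retapamulin libraries lay above all untreated ones. Of the summed CPM, CTSB made up 26.4% in untreated cells, 67.4% with M5, 35.4% with lefamulin and 31.7% with retapamulin. CTSD made up 26.2%, 9.08%, 22.9% and 26.1%, so its lead over CTSB with either compound was seen only per length.

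**Figure D3:**
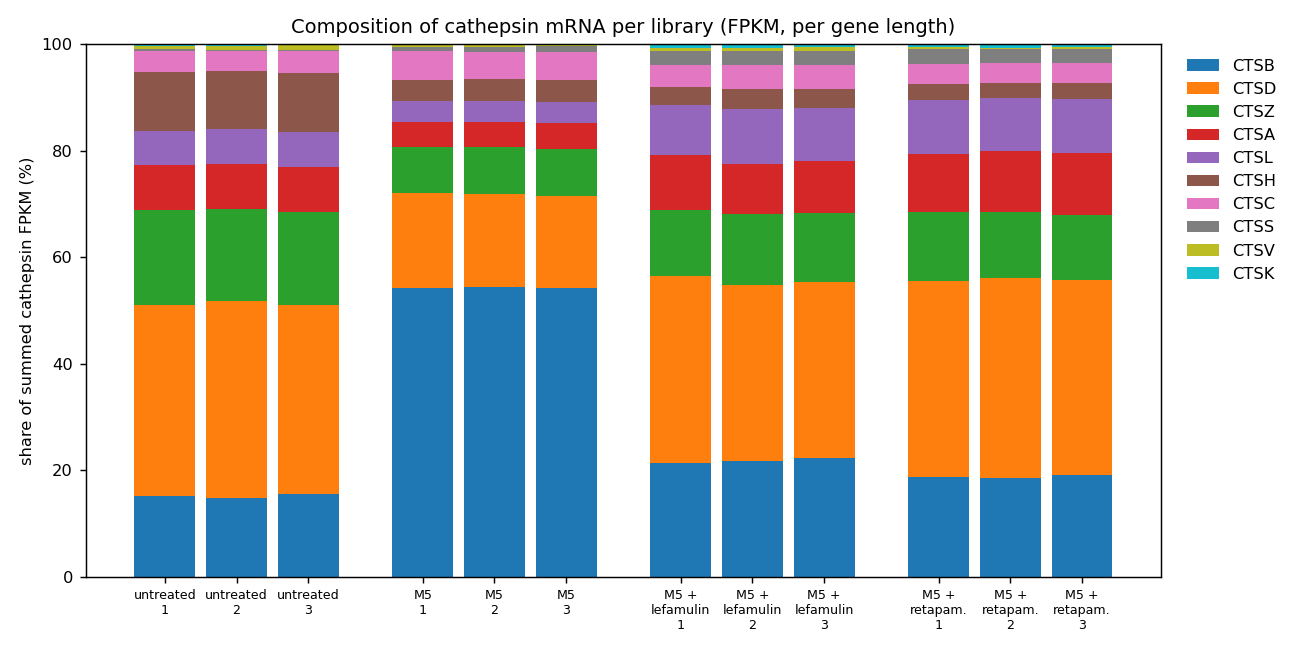
Share of each cathepsin gene in the summed FPKM of the 10 genes (vertical axis, percent, stacked) in each of the 12 libraries. CTSB takes 54.2% on average with M5 and between 15.2% and 21.8% in the other groups, and the 3 libraries of each group are alike.

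The other cathepsin genes were low. CTSO had counts of 44, 26 and 54 in untreated cells and 55, 55 and 52 with M5. It had 33, 42 and 56 with lefamulin and 9, 20 and 11 with retapamulin. Only the retapamulin group stood apart below all others. In CPM, M5 libraries, at 1.39 to 1.51, lay above untreated ones, at 0.674 to 1.35. That log2 fold change, 0.47, was not called. The log2 fold change of CTSO was -1.88 ± 0.35 (SE) for retapamulin against M5. CTSE had at most 2 counts and CTSW at most 3 in any library, and neither was tested.

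In the list of cysteine cathepsin inhibitors, 12 of 14 listed genes were in the table and 7 were tested, with 5 higher and 1 lower with M5 than in untreated cells (median log2 fold change 0.81), beside 28.3% and 26.9% of all genes. SERPINB3 and SERPINB4, serpins of this list and near-identical copies whose reads may be split, stood at 544 and 832 CPM with M5. In untreated cells they stood at 0.00865 and 0.0425 CPM. Whether SERPINB4 acts on the cathepsins described here was not tested. With lefamulin they stood at 55.5 and 89.1 CPM, and with retapamulin at 13.7 and 28.2 CPM. SERPINB13, another keratinocyte serpin, went from 29.5 to 230.0 CPM with M5 and to 50.2 and 19.0 CPM with lefamulin and retapamulin. Against M5, 2 were higher and 4 lower with lefamulin (median -0.50), and 1 higher and 5 lower with retapamulin (median -0.84), beside 33.6% and 34.3%, and 34.1% and 38%, of all genes. LXN, latexin, is known as an inhibitor of metallocarboxypeptidases rather than of cysteine cathepsins, and it is the 1 gene of the list that was lower with M5. It was lower in each of the 3 comparisons, from 24.0 CPM in untreated cells to 11.04, 7.83 and 6.17 CPM. CSTB, cystatin B, was 77.8 CPM in untreated cells, 136 CPM with M5, 150.1 CPM with lefamulin and 157 CPM with retapamulin.

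Genes that sort and mature cathepsins numbered 12, of which 11 were tested. M5 gave 5 higher and 1 lower, lefamulin against M5 gave 6 and 3, and retapamulin against M5 gave 8 and 3, with medians of 0.11, 0.34 and 0.30. The shares of all genes called higher and lower were 28.3% and 26.9%, 33.6% and 34.3%, and 34.1% and 38% in the same 3 comparisons. On library totals M5 gave 5 higher and 4 lower, where 2675 of all 14207 genes tested were higher and 5823 lower. LGMN, legumain, the protease that cuts several cathepsin precursors, was 30.4, 48.4, 96.4 and 76.5 CPM in untreated cells, M5, lefamulin and retapamulin. GNPTAB, which adds the mannose 6-phosphate tag, was 85.8, 139, 106 and 95.03 CPM, highest with M5. PSAP, the precursor of the saposins, was 552, 569.9, 877 and 906 CPM. In the complex of CTSA, NEU1, the lysosomal neuraminidase, stood at 53.4, 77.9, 313 and 253 CPM and GLB1, beta-galactosidase, at 60.1, 59.7, 71.2 and 63.1 CPM. Of its 3 partners, 1 was higher with M5, 3 with lefamulin against M5 and 2 with retapamulin against M5, and 0 were lower.

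The lysosomal lumen list had 36 of 37 genes in the table and 35 tested. With M5 8 were higher and 15 lower (median -0.08), beside 28.3% and 26.9% of all genes. On library totals 5 were higher and 21 lower, where 2675 of all 14207 genes tested were higher and 5823 lower. Lefamulin against M5 gave 19 higher and 8 lower (median 0.21), and retapamulin against M5 gave 17 and 12 (median 0.09), beside 33.6% and 34.3%, and 34.1% and 38%, of all genes. LIPA, lysosomal acid lipase, fell from 407 CPM in untreated cells to 211 CPM with M5. IDS, iduronate sulfatase, was 83.2 CPM with M5, 166 CPM with lefamulin and 209.8 CPM with retapamulin. SGSH, a heparan sulfatase, was 31.0, 15.99 and 13.4 CPM in the same order.

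The TFEB family and lysosome regulators had 9 of 10 genes tested, with 3 higher and 2 lower with M5, and 6 and 2 in each compound comparison. On library totals the M5 count turned to 1 higher and 4 lower, where 2675 of all 14207 genes tested were higher and 5823 lower. The shares of all genes on the TMM scale apply to this list and the next. They were 28.3% and 26.9% higher and lower with M5, 33.6% and 34.3% with lefamulin against M5, and 34.1% and 38% with retapamulin against M5. TFEB itself was low, at 3.17, 4.44, 1.20 and 1.68 CPM in untreated cells, M5, lefamulin and retapamulin. TFE3, its relative, stood at 67.8, 85.7, 107 and 141 CPM, and MITF at 24.4, 9.90, 14.1 and 19.8 CPM. FLCN and FNIP1, which form a complex that keeps these factors out of the nucleus when nutrients are present, stood at 46.7 and 24.4 CPM in untreated cells, 46.2 and 24.7 CPM with M5, 94.9 and 53.0 CPM with lefamulin, and 111 and 59.8 CPM with retapamulin. Among 9 interferon and inflammation factors known at cathepsin genes, 8 were tested, with 6 higher and 0 lower with M5, 3 and 4 with lefamulin against M5, and 3 and 5 with retapamulin against M5. IRF1, an interferon-induced factor, was 47.2, 82.2, 46.0 and 40.0 CPM, and CEBPB 34.1, 158, 187 and 205 CPM.

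**Figure D4:**
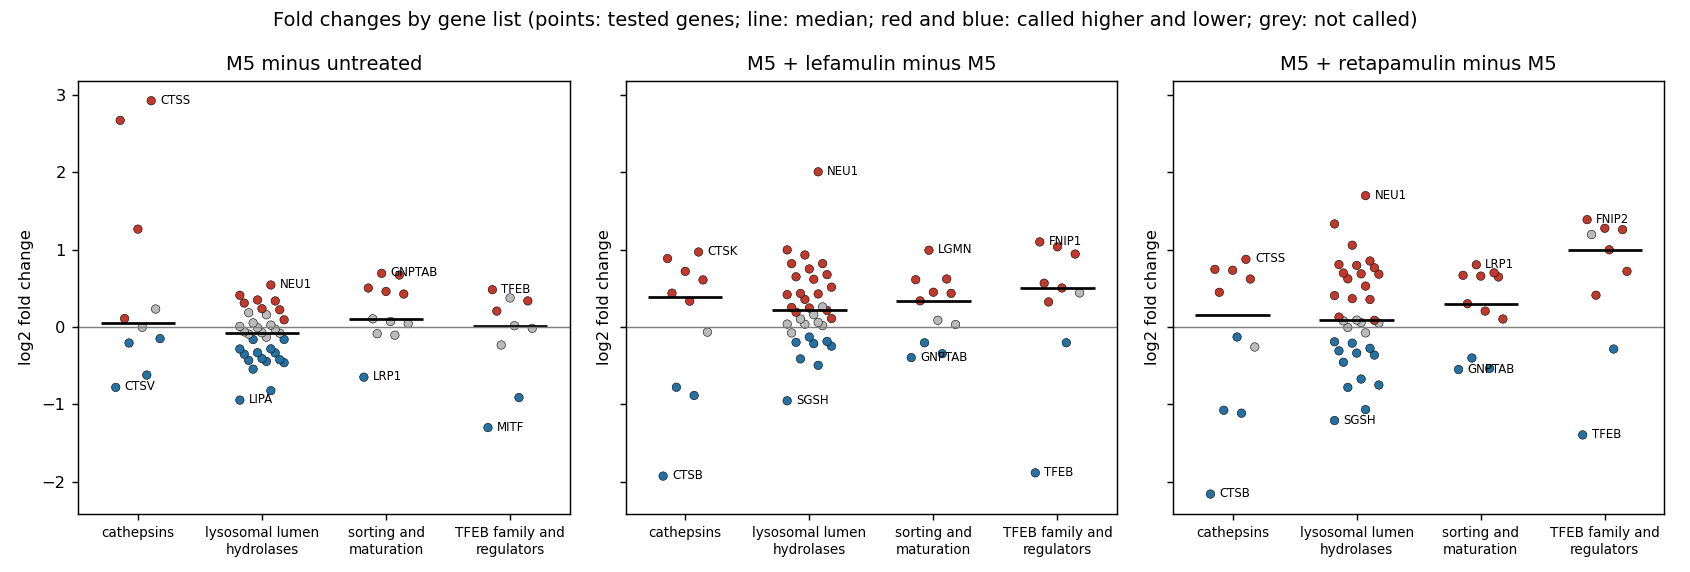
Log2 fold change (vertical axis) of the tested genes of 4 lists, the cathepsins, lysosomal lumen genes, sorting and maturation genes, and TFEB family and regulators, in 3 comparisons; points are genes (red called higher, blue called lower, grey not called) and lines are medians. Of the lysosomal lumen genes 8 were called higher and 15 lower with M5, beside 28.3% and 26.9% of all genes, and NEU1 stands highest in that list.

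For each member the 3 genes whose centred log2 CPM was closest over the 12 libraries were found among 10219 genes, by root mean square difference. CD274, which encodes PD-L1, was closest to CTSS at 0.114, followed by PLAUR at 0.230. NPC2, the sterol carrier of the lysosome, was closest to CTSL at 0.0431. SLC39A8, a zinc and manganese transporter, was closest to CTSB at 0.175, followed by OLR1 at 0.183. XPR1, a phosphate exporter, was closest to CTSC at 0.0886, ARPC1B to CTSA at 0.0494, PGAP2 to CTSH at 0.0651 and PSMD10 to CTSZ at 0.0336. ZER1 was closest to CTSD at 0.0537, PRXL2A to CTSK at 0.180 and LINC02700 to CTSV at 0.162. Among the members themselves CTSA and CTSD were the closest pair by this difference, at 0.144, followed by CTSA and CTSL at 0.157. The difference depends on the size of changes as well as their direction. CTSB and CTSC, at 0.527, had a Pearson correlation of 0.994, against 0.894 for CTSA and CTSD.

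Cathepsins are also made by cells of other kinds, so their markers were measured. Of 10 myeloid markers 8 were in the table, and their sum was 12.3 to 14.1 CPM in untreated cells, 30.0 to 31.5 CPM with M5, 39.7 to 43.0 CPM with lefamulin and 75.0 to 84.6 CPM with retapamulin. Nearly all of that was CD68, itself a lysosomal membrane protein, at 74.7 to 84.3 CPM with retapamulin, whereas PTPRC, a defining marker of white blood cells, was at or below 0.0301 CPM. CD14, the other myeloid marker with enough counts to be tested, went the other way with the compounds, at 0.391, 1.58, 0.235 and 0.0689 CPM in untreated cells, M5, lefamulin and retapamulin. T lymphocyte markers summed to at most 0.113 CPM and neutrophil granule markers to at most 0.0301 CPM. Of 6 osteoclast markers 5 were in the table, and their sum was 1.43 to 2.07 CPM in untreated cells, 1.10 to 1.56 CPM with M5, 1.92 to 2.82 CPM with lefamulin and 3.54 to 4.37 CPM with retapamulin. Among them ATP6V0D2, a proton pump subunit, was at 0.0428, 0.0726, 0.779 and 2.67 CPM, while CALCR and OCSTAMP were at 0 in every group but retapamulin. Of the 3 osteoclast markers tested, 1 was called higher and 2 were not called with each compound against M5. Their median log2 fold change was 0.74 with lefamulin and 0.02 with retapamulin, and 33.6% and 34.1% of all genes were called higher. All 7 fibroblast markers were in the table, with a sum of 7.17 to 7.94, 5.63 to 6.92, 15.4 to 17.0 and 9.34 to 11.1 CPM. Most of it was COL1A1, at 7.42, 6.09, 15.9 and 10.2 CPM. COL3A1 and DCN were at 0 with both compounds. Of the 2 fibroblast markers tested, M5 gave 1 higher than in untreated cells, at 4.26 on the log2 scale, and 1 lower, at -0.29. The shares of all genes were 28.3% and 26.9%. Against M5, each compound gave 1 called higher and 1 not called, beside 33.6% and 34.1% of all genes called higher. Melanocyte markers, 4 of 5 in the table, summed to at most 2.44 CPM. The part of these markers in the cathepsin values was not tested. In bulk RNA, fewer cells of a type and less RNA per cell cannot be told apart.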

How the data were processed

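RNA sequencing counts of 12 HaCaT libraries were used. The submitters' processing notes name HISAT2, an aligner, and HTSeq, a read counter; versions and genome build are not stated in the sources used here. Whole-number counts per gene were deposited in a table, and the authors' FPKM in another. From the counts, R 4.3.3 with edgeR 4.0.16 gave TMM-scaled CPM and a quasi-likelihood fit on all 12 libraries (filterByExpr, Benjamini-Hochberg over 14207 genes). FPKM were used for levels between genes and, with limma 3.58.1, as an alternative; DESeq2 1.42.0 was another. The labels' extraction text describes mouse epidermis and was not used. Members and lists were chosen with earlier results of these data known. All members were named, and list genes by the largest called changes or, for short lists, any gene; single cell type markers were chosen after their values were seen. Chi-square per degree of freedom between replicates was 2.87 to 9.95, so no library was counted as a duplicate. The highest values, 9.95 and 8.59, were both for untreated replicate 2, against 4.20 between untreated replicates 1 and 3.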

Additional observations from a re-analysis of the deposited data

How the results depend on the processing

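Of 1260 member values recomputed under the alternatives, 1192 kept their direction and their side of the threshold, 31 changed sign, 22 became called and 15 lost their call. The number of members lower with lefamulin than with retapamulin was 2, and it became 0 on library totals, 0 with limma on log2(FPKM + 1) and 0 on log2(FPKM + 0.1), with a range of 1 to 2 when each library was left out. CTSA, M5 against untreated cells, at -0.00, became 0.00623 with RLE size factors, 0.0107 with DESeq2, 0.0151 without a filter on low counts and 0.00634 with only the 2 groups compared, and -0.0366 to 0.0441 without single libraries. On library totals, log2(FPKM + 1) and log2(FPKM + 0.1), CTSC for retapamulin against untreated cells became -0.101, -0.0955 and -0.100, CTSD for lefamulin against untreated cells -0.0352, -0.0339 and -0.0341, CTSD for retapamulin against untreated cells -0.0100, -0.00804 and -0.00807, CTSL for M5 against untreated cells -0.00770, -0.00690 and -0.00708, and CTSL for lefamulin against retapamulin 0.0747, 0.0725 and 0.0739. CTSL for that comparison ranged from -0.0383 to 0.0195 without single libraries. CTSS for lefamulin against retapamulin became -0.0247 with RLE size factors and -0.0286 with DESeq2, and ranged from -0.0211 to 0.0261 without single libraries. On RLE size factors and DESeq2, the share of called genes higher for lefamulin against retapamulin was 36.8% and 35.3%, against 47.0%, and on library totals 72.8%. Deviations from group means were correlated between groups to look for pairing by replicate number. Of 18 same-numbered pairs, 3 had a correlation over 0.1. Their range was -0.14 to 0.18, against -0.27 to 0.26 for pairs with different numbers. With 3 libraries per group these values cannot decide whether replicate numbers mark a shared culture or day, which the labels do not state. With a replicate block CTSV for retapamulin against M5 became called at -0.26, making 5 members lower in place of 4, and no other member count changed. The cause of each change was not tested. CTSK had the fewest counts of the 10 members, 79 to 214 per library.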
